A study of Mus musculus with 9 samples.

Results

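Collagen genes were followed in mouse spinal cord through all 44 probe sets whose annotation gave exactly 1 gene symbol of the form Col, digits, a, digits, out of 12488 probe sets on the array. They stood for 31 genes. All 44 were kept: 5 probe sets for 5 collagen IV genes of basement membranes, 13 for 8 fibrillar collagen genes and 26 for 18 genes of other collagen classes. A probe set is a group of short oligonucleotides on the array that reads 1 transcript, and 9 of the 31 genes had more than 1.

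Collagens are triple-helical matrix proteins. Collagen IV chains form the sheet-like network of basement membranes, which in the central nervous system underlie blood vessels and the astrocyte end feet at the cord surface. Fibrillar collagens (types I, II, III, V and XI) form rope-like fibrils and are found mainly in the meninges, in large vessel walls, in cartilage and in fibrotic scars.

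Total RNA of spinal cord from B10.PL mice was measured on 1-colour arrays, 1 array per sample, with 3 samples in each of 3 groups. The groups were EAE given 200 ng of calcitriol (replicates 6, 7 and 8), EAE given placebo (replicates 1, 5 and 10) and naive mice (replicates 2, 3 and 4). EAE (experimental autoimmune encephalomyelitis) is a T cell-driven disease of brain and cord that models multiple sclerosis, and calcitriol is the hormonal form of vitamin D. Cords of both EAE groups were taken 6 h after treatment, and no placebo or treatment time is named for naive mice, so EAE and placebo cannot be told apart in the comparison with naive cord. For calcitriol replicate 6 the labels disagree on the form of the hormone: D2 in the title, D3 in the description. Nothing in the labels says whether replicates were separate animals, so p-values reflect only how far these samples differ, and that spread may be technical.

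Signals are given in units scaled to a common trimmed mean of 192.6 per array, and values under a floor of 19.3 were raised to it before log2. Naive arrays varied more than the others, with a median SD per probe set of 0.252 log2 in calcitriol, 0.226 in placebo and 0.362 in naive arrays. Correlations over probe sets were 0.899 to 0.938 between calcitriol arrays, 0.921 to 0.936 between placebo arrays and 0.765 to 0.878 between naive arrays. The 5′ minus 3′ log2 difference of the beta-actin control probe sets ran from -0.83 to -0.52 on calcitriol arrays, from -1.11 to -0.42 on placebo arrays and from -0.25 to 0.12 on naive arrays. All EAE arrays therefore lay below all naive arrays in this measure of RNA length, and its part in the results below was not tested. Of the 44 collagen probe sets, 34 were above the floor on all 9 arrays and the other 10 on at least 4 arrays, so all 44 entered the test.

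In EAE cord the collagen IV gene Col4a1 was higher than in naive cord, 2.68-fold with placebo and 2.97-fold with calcitriol, and no fibrillar collagen probe set passed the test in any comparison. In placebo-treated EAE against naive cord, 2 of 44 collagen probe sets rose and 0 fell (limma, Benjamini-Hochberg adjusted p under 0.05 over all 12178 probe sets tested), where 0.936% of all probe sets were called, 0.887% higher and 0.0493% lower. The second was Col4a3, close to the floor on EAE arrays and at it on all naive arrays. In calcitriol-treated EAE against naive cord 1 of 44 rose and 0 fell, where 2% of all probe sets were called, 1.68% higher and 0.312% lower. That gene was again Col4a1. Both comparisons share the naive arrays. Between the EAE groups 0 of 44 collagen probe sets passed, and 0% of all probe sets were called.

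Col4a1 and Col4a2 encode the chains of the most widespread collagen IV heterotrimer. They lie head to head, and both RefSeq promoter windows (250 bases before to 50 after the start, build GRCm38.p6) are shown because these neighbours were both higher on every EAE array than on every naive array, but to different extents. Capitals mark the 78 bases that the windows share, read on opposite strands (chr8:11312777-11312854). The start sites of these windows, 11312826 for Col4a1 and 11312805 for Col4a2, are 21 bases apart and placed so that the 5′ ends of the genes overlap. The RefSeq gene record of Col4a1 runs further, to 11312889. The Col4a1 window is chr8:11312777-11313076 on the minus strand and the Col4a2 window chr8:11312555-11312854 on the plus strand.
Col4a1: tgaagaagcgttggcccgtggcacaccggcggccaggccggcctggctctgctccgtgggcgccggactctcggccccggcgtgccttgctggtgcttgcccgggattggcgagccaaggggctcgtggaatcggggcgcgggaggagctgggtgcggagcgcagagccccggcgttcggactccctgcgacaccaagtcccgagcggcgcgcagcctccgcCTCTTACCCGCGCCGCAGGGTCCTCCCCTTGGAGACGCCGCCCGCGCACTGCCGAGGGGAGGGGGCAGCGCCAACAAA
Col4a2: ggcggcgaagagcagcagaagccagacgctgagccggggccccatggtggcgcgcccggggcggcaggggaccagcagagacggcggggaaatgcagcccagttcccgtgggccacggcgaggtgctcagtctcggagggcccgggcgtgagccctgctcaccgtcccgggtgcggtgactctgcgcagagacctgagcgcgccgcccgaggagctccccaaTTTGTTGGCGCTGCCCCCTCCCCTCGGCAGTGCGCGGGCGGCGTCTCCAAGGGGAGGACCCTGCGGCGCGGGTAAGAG
The shared stretch is 73.1% G and C. Windows were searched on both strands for 4 motifs, each counted on its own whether or not matches overlapped. One was TATAAA, the core promoter element near many start sites. Another was CCAAT, the element bound by the factor NF-Y. The others were GGGCGG, a GC box bound by Sp1, and the C-rich run CCCTCCCC. None of the 4 collagen IV genes with a window (Col4a1, Col4a2, Col4a4 and Col4a5) had TATAAA, which 13.6% of all 32851 windows hold. CCCTCCCC was in the windows of Col4a1, Col4a2 and Col4a5, against 10.8% of all windows, and the Col4a1 and Col4a2 matches are the same bases of the shared stretch. CCAAT (37.4% of all windows) and GGGCGG (35.7%) were found in the same 3 windows and not in that of Col4a4, and here too the only GGGCGG match of Col4a1 is the same bases as a match of Col4a2. Each match is only a match of letters.

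Col4a1 (probe set 101093_at) read 338, 396 and 328 signal units on calcitriol arrays, 385, 327 and 257 on placebo arrays, and 110, 130 and 117 on naive arrays. All 6 EAE arrays were above all 3 naive arrays, and the EAE groups overlapped. The difference was 1.42 ± 0.18 log2 (SE, n = 3 per group) for placebo against naive (limma adjusted p = 0.00878) and 1.57 ± 0.18 log2 for calcitriol against naive (limma adjusted p = 0.00315). By unadjusted p it ranked at 22 of 12178 probe sets in the comparison with placebo and at 25 in that with calcitriol. The calcitriol call held in all 19 alternative settings, and the placebo call in all but the fit without placebo replicate 5 (adjusted p = 0.0599).

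Col4a2 (101039_at) read 203, 207 and 162 units on calcitriol arrays, 179, 198 and 185 on placebo arrays, and 140, 162 and 135 on naive arrays. The groups did not overlap, but calcitriol replicate 8 and naive replicate 3 were nearly level. The difference was 0.36 ± 0.17 log2 for placebo against naive (95% interval -0.01 to 0.74, limma adjusted p = 0.553) and 0.38 ± 0.17 log2 for calcitriol against naive (0.01 to 0.76, limma adjusted p = 0.403), neither past the threshold. The intervals of Col4a1, 1.02 to 1.82 with placebo and 1.17 to 1.97 with calcitriol, lay wholly above those of Col4a2, and the gap between the genes was not itself tested. In bulk tissue, a change in the number of cells that make a transcript and a change in RNA per cell cannot be told apart.

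**Figure D1:**
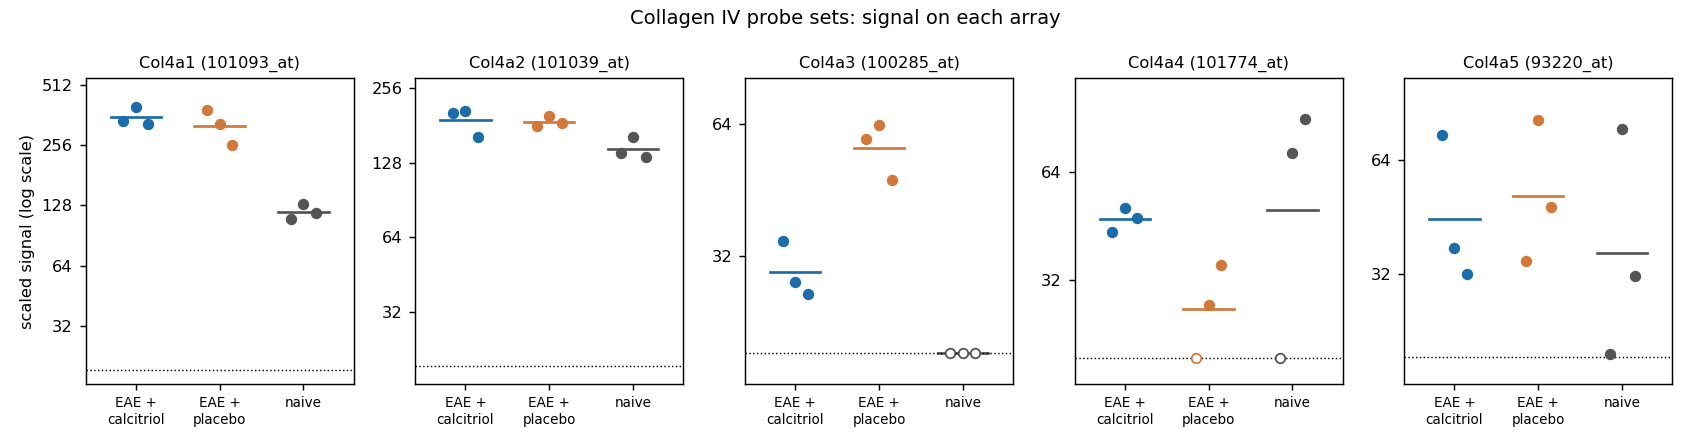
Scaled signal (log scale) of the 5 collagen IV probe sets on each of the 9 arrays, in EAE with calcitriol, EAE with placebo and naive cord; bars are means of the log2 values, open points lie at the floor and the dotted line is the floor of 19.3 units. Col4a1 is at 257 to 396 units on the EAE arrays and at 110 to 130 on the naive arrays, whereas Col4a4 and Col4a5 overlap between EAE and naive cord.

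Col4a3, Col4a4 and Col4a5 encode the chains of a more specialised collagen IV network, known from kidney glomeruli, cochlea and lens. Col4a3 (100285_at) read 34.7, 27.9 and 26.3 units on calcitriol arrays, 59.0, 63.6 and 47.6 on placebo arrays, and -9.81, 11.7 and 7.5 on naive arrays, all 3 of which were at the floor. Placebo arrays were thus above calcitriol arrays, and both above naive arrays, without overlap. It rose at least 2.92-fold in placebo against naive (1.55 ± 0.28 log2, SE, limma adjusted p = 0.0368), and stood at 0.61 ± 0.28 log2 in calcitriol against naive (limma adjusted p = 0.426). It was above the floor on EAE arrays only, so it entered the test through the groups where it was high. The floor also set its SD on naive arrays to 0, which narrows the spread behind its p-values. The call was lost in the fits without any 1 of the 9 arrays (adjusted p from 0.0564 to 0.188), with the source name wording as a block (0.0508), in the fit of only the 6 arrays (0.111) and with a floor of 20%, where the difference was 0.55 log2 (adjusted p = 0.232).

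Col4a4 (101774_at) read 43.5, 50.8 and 47.7 units on calcitriol arrays, -12.6, 27.3 and 35.3 on placebo arrays, and -14.2, 72.3 and 90.4 on naive arrays. Placebo replicate 1 and naive replicate 2 were at the floor, and the EAE groups each overlapped naive cord. Its difference was -0.92 ± 0.54 log2 for placebo against naive (limma adjusted p = 0.69) and -0.09 ± 0.54 log2 for calcitriol against naive (limma adjusted p = 0.979). With array weights, which put most weight on naive replicate 3 (4.38, against 0.259 and 0.414 for naive replicates 2 and 4), the placebo difference was -1.39 log2 (adjusted p = 0.0388). Col4a5 (93220_at) read 74.1, 37.4 and 31.9 units on calcitriol arrays, 34.5, 81.2 and 48.1 on placebo arrays, and 19.7, 76.8 and 31.6 on naive arrays. All groups overlapped in Col4a5, with differences of 0.50 ± 0.56 log2 for placebo (limma adjusted p = 0.85) and 0.29 ± 0.56 log2 for calcitriol against naive (limma adjusted p = 0.891).

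Type I collagen, the main fibril of connective tissue, is made of Col1a1 and Col1a2 chains, each read by a pair of probe sets. The estimates within each pair differed in size or sign, and this gap was not tested. For Col1a1, probe set 103709_at read 294, 274 and 287 units on calcitriol arrays, 274, 232 and 397 on placebo arrays, and 320, 281 and 277 on naive arrays. These groups overlapped, and the differences were 0.01 ± 0.19 log2 for placebo and -0.03 ± 0.19 log2 for calcitriol against naive (limma adjusted p = 0.997 and 0.975). The other Col1a1 probe set, 94305_at, read 42.9, 56.1 and 128 units on calcitriol arrays, 14.2, 6.82 and 212 on placebo arrays, and 3.17, 13.2 and -23.9 on naive arrays. Only placebo replicate 10 of the placebo arrays was above the floor, whereas all calcitriol arrays were above it and all naive arrays at it. The probe set thus entered the test only through EAE arrays. This gave at least 3.51-fold for calcitriol against naive (1.81 ± 0.84 log2, limma adjusted p = 0.445). For placebo against naive it stood at 1.15 ± 0.84 log2 (limma adjusted p = 0.754), which rests on placebo replicate 10 and was 0.00 log2 without it.

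For Col1a2, probe set 101130_at read 149, 129 and 121 units on calcitriol arrays, 139, 141 and 229 on placebo arrays, and 90.9, 141 and 123 on naive arrays. It stood at 0.50 ± 0.26 log2 for placebo (limma adjusted p = 0.613) and 0.19 ± 0.26 log2 for calcitriol against naive (limma adjusted p = 0.842), with overlap in both. Probe set 161156_r_at read 1338, 985 and 883 units on calcitriol arrays, 1146, 1156 and 1215 on placebo arrays, and 760, 1462 and 1577 on naive arrays. Here naive replicate 2 was the lowest and naive replicate 4 the highest of all arrays, and the differences were -0.04 ± 0.27 log2 for placebo and -0.20 ± 0.27 log2 for calcitriol (limma adjusted p = 0.984 and 0.842).

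Col3a1 encodes type III collagen, the fibril of vessel walls and early scars. Its brightest probe set, 98331_at, read 183, 145 and 314 units on calcitriol arrays, 127, 122 and 198 on placebo arrays, and 111, 122 and 142 on naive arrays. All calcitriol arrays were above all naive arrays, narrowly for replicate 7, and placebo arrays overlapped both. The difference was 0.70 ± 0.30 log2 for calcitriol against naive (limma adjusted p = 0.399) and 0.22 ± 0.30 log2 for placebo against naive (limma adjusted p = 0.883). The dimmer Col3a1 probe sets 102990_at and 161984_f_at were between the floor and 65.8 units on all arrays. Their differences were 0.46 and 0.35 log2 for calcitriol and 0.49 and 0.25 log2 for placebo against naive, with overlap, so all 3 probe sets of Col3a1 were above 0 and none passed.

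The promoter windows of Col1a2 (chr6:4505368-4505667, plus strand) and Col3a1 (chr1:45311288-45311587, plus strand) are shown for contrast with those of the collagen IV pair. Capitals mark TATAAA or CCAAT on either strand.
Col1a2: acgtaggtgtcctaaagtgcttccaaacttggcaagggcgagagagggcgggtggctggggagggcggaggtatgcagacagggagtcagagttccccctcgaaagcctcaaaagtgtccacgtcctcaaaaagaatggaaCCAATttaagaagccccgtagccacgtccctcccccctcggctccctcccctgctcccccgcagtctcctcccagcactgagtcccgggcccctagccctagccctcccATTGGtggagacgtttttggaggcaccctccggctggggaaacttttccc
Col3a1: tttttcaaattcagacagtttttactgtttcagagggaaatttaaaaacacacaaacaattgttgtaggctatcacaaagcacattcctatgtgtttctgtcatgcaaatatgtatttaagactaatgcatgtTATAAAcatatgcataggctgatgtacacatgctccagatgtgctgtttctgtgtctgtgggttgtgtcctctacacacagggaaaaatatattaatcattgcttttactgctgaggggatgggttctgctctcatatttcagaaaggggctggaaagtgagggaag
Of the 5 fibrillar genes with a window, Col3a1 and Col11a2 had TATAAA and the windows of Col1a2 and Col11a1 had CCAAT. Counted from the start site, TATAAA began at -117 in Col3a1 and at -143 in Col11a2, and neither match lay close to the start. CCAAT matches began at -109 and 0 in Col1a2 and at -79 in Col11a1. The GC box was found in 4 of the 5, all but Col3a1, and the C-rich run in Col1a2 and Col11a2. Of all 31 collagen genes, 22 had a RefSeq window.

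Col5a1 and Col5a2 encode type V collagen, which starts and limits the growth of type I fibrils. For Col5a1, probe set 101080_at read 213, 150 and 203 units on calcitriol arrays, 131, 147 and 126 on placebo arrays, and 40.0, 192 and 169 on naive arrays. Naive replicate 2 alone was low, and the difference of 0.77 ± 0.51 log2 for calcitriol against naive (limma adjusted p = 0.609) was 0.05 log2 without it, while that for placebo, 0.30 ± 0.51 log2, became -0.42 log2. The other Col5a1 probe set, 93472_at, read 225, 189 and 212 units on calcitriol arrays, 172, 179 and 210 on placebo arrays, and 237, 177 and 222 on naive arrays, with differences of -0.02 ± 0.17 log2 for calcitriol and -0.18 ± 0.17 log2 for placebo against naive. Col5a2 (92567_at) was dim, at 47.4, 40.2 and 55.1 units on calcitriol arrays, 64.3, 45.3 and 31.5 on placebo arrays, and 52.4, 11.6 and 24.8 on naive arrays. Its groups overlapped, at 0.69 ± 0.43 log2 for calcitriol and 0.62 ± 0.43 log2 for placebo against naive (limma adjusted p = 0.589 and 0.732).

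Col2a1, Col11a1 and Col11a2 encode the fibrillar collagens of cartilage. Col2a1 (95410_s_at) read 147, 107 and 110 units on calcitriol arrays, 109, 142 and 124 on placebo arrays, and 101, 135 and 116 on naive arrays, with full overlap. Col11a1 (100481_at) read 197, 190 and 242 units on calcitriol arrays, 150, 180 and 198 on placebo arrays, and 171, 217 and 268 on naive arrays, also with overlap. Col11a2 (103616_at) read 1.95, 66.4 and 76 units on calcitriol arrays, 78.3, 75 and -5.3 on placebo arrays, and 99.2, 93.4 and 84.1 on naive arrays. Both EAE groups lay below naive cord, each with 1 array at the floor, at -1.0 ± 0.64 log2 for calcitriol and -0.93 ± 0.64 log2 for placebo (limma adjusted p = 0.597 and 0.732). Without those arrays, calcitriol replicate 6 and placebo replicate 10, they were -0.37 and -0.26 log2.

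**Figure D2:**
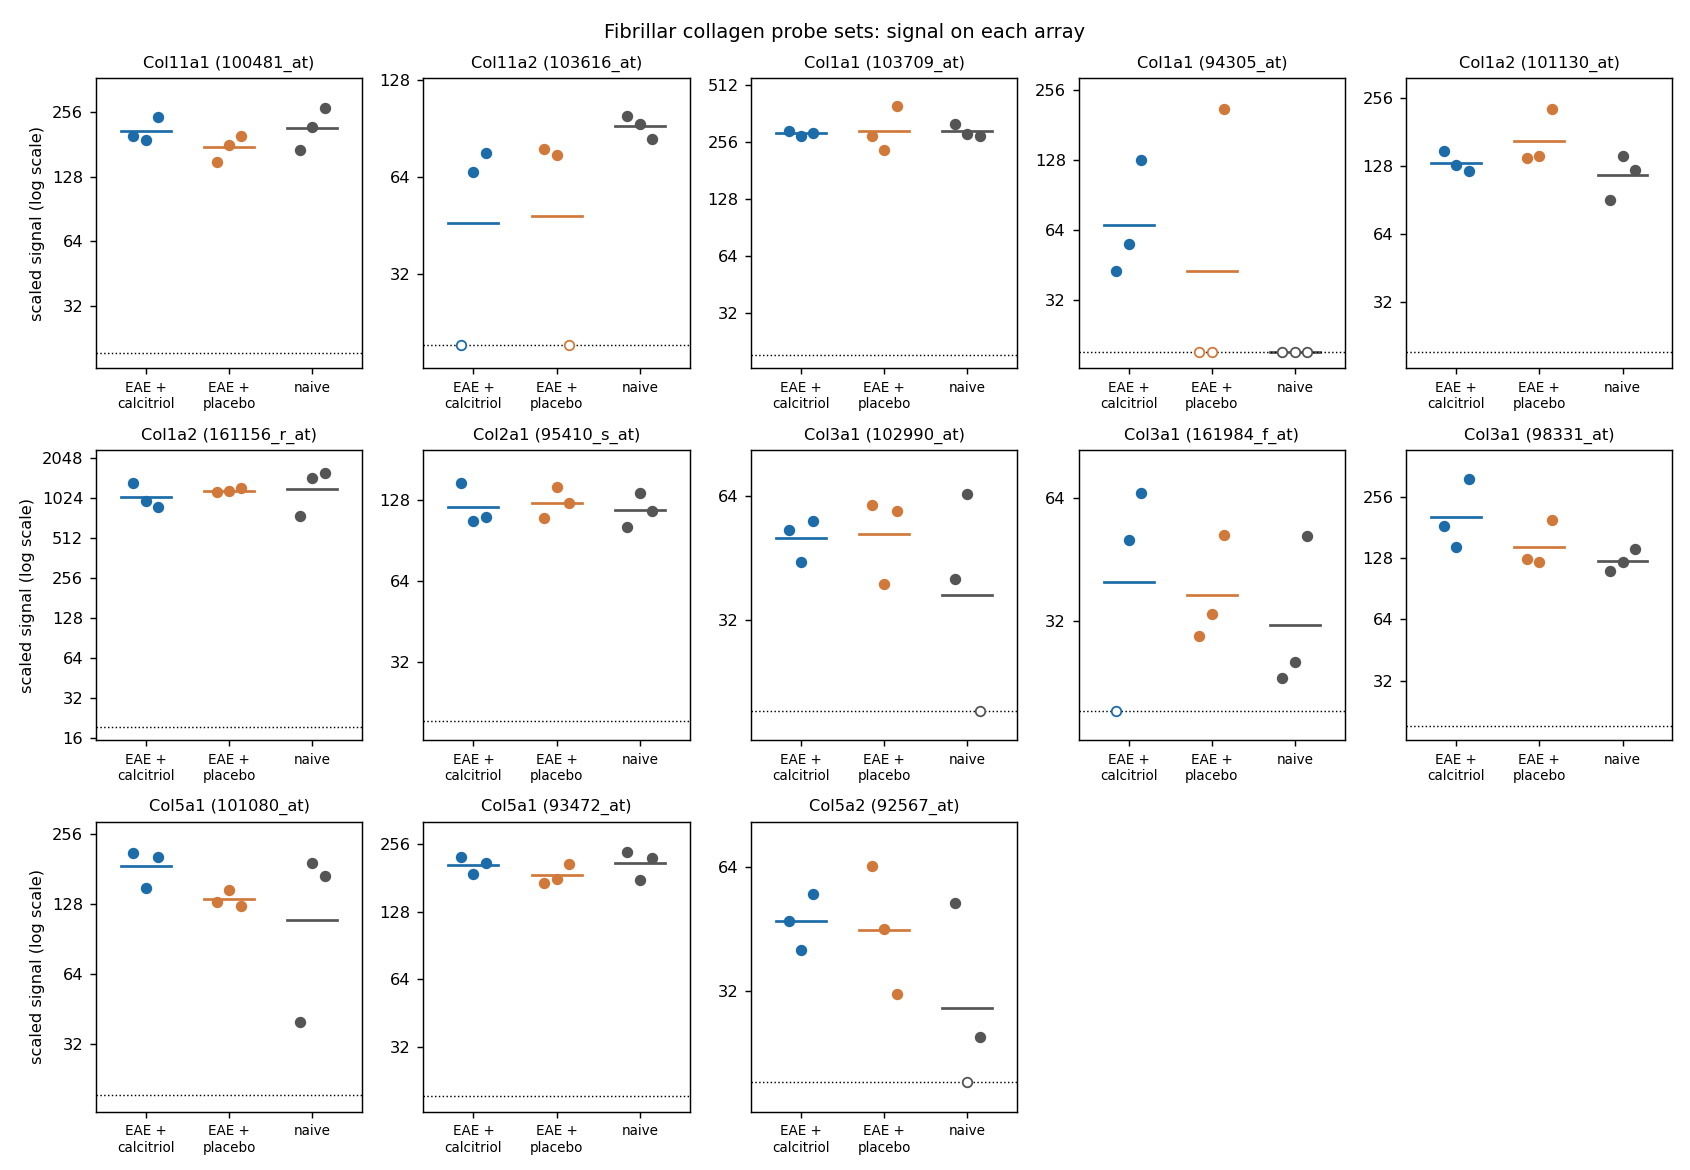
Scaled signal (log scale) of the 13 fibrillar collagen probe sets on each array, in EAE with calcitriol, EAE with placebo and naive cord; bars are means of the log2 values, open points lie at the floor and the dotted line is the floor of 19.3 units. Most groups overlap. Col11a2 (103616_at) is below naive cord in both EAE groups, and Col3a1 (98331_at) and Col1a1 (94305_at) are above it with calcitriol. All naive arrays of Col1a1 (94305_at) are at the floor.

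Set side by side, 2 of 5 collagen IV probe sets rose in placebo-treated EAE against naive cord, among them Col4a3 with all naive arrays at the floor. Of fibrillar probe sets 0 of 13 rose, and none of either class fell, where 0.887% of all probe sets rose. At such a share 0 of 13 is no result about fibrillar collagens. Groups did not overlap for 3 of 5 collagen IV probe sets (Col4a1, Col4a2 and Col4a3, all higher) and for 1 of 13 fibrillar probe sets (Col11a2, lower), where 14.5% of all probe sets did not overlap (7.39% higher and 7.09% lower). The median difference was 0.50 log2 for collagen IV and 0.22 log2 for fibrillar collagens, against -0.02 log2 over all probe sets. With 5 probe sets the collagen IV median is the value of 1 of them, here Col4a5, whose groups overlapped. In calcitriol-treated EAE against naive cord 1 of 5 collagen IV and 0 of 13 fibrillar probe sets rose, where 1.68% of all probe sets rose. The same 3 collagen IV genes did not overlap, nor did 3 fibrillar probe sets (Col3a1 98331_at and Col1a1 94305_at higher, Col11a2 lower), where 16.2% of all probe sets did not (8.48% higher and 7.68% lower). Col4a3 and Col1a1 94305_at were at the floor on all naive arrays. Both entered the test only through EAE arrays, where they were high, so their place in these counts is no support for a rise. The medians were 0.38 log2 for collagen IV, here the value of Col4a2, and 0.19 log2 for fibrillar collagens, against -0.02 log2 over all probe sets.

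The collagen IV median minus the fibrillar median was 0.27 log2 for placebo and 0.20 log2 for calcitriol against naive. On single arrays the collagen IV median, relative to the naive mean, was 0.85, 0.51 and 0.16 log2 with calcitriol, 0.30, 1.16 and 0.41 log2 with placebo, and -0.11, 0.15 and -0.02 log2 in naive cord. The fibrillar median was 0.33, 0.15 and 0.17 log2 with calcitriol, -0.07, 0.00 and 0.21 log2 with placebo, and -0.16, 0.01 and 0.07 log2 in naive cord. EAE arrays were all above naive arrays for collagen IV, by almost nothing for calcitriol replicate 8 against naive replicate 3. This median includes Col4a3, which the floor held at the same value throughout naive cord and which was higher on every EAE array. Col4a3 entered the test only through EAE arrays, and the median was not taken without it. The separation is therefore no support for a rise of collagen IV as a class. Calcitriol arrays were also above naive arrays for fibrillar collagens, where placebo and naive arrays overlapped. Collagen IV minus fibrillar median on single arrays was 0.52, 0.37 and -0.02 log2 with calcitriol, 0.37, 1.16 and 0.20 log2 with placebo, and 0.06, 0.14 and -0.09 log2 in naive cord. Calcitriol arrays overlapped naive arrays in this difference, and placebo arrays were above them, by little for replicate 10. Col4a3 enters this difference too, with the same limit. With only types I, III and V as fibrillar collagens the class difference was 0.22 log2 for placebo and -0.02 log2 for calcitriol. With Col15a1 and Col18a1 added to collagen IV it was 0.03 log2 for placebo and 0.11 log2 for calcitriol. No test was made of this score, since the genes were chosen with earlier results known.

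**Figure D3:**
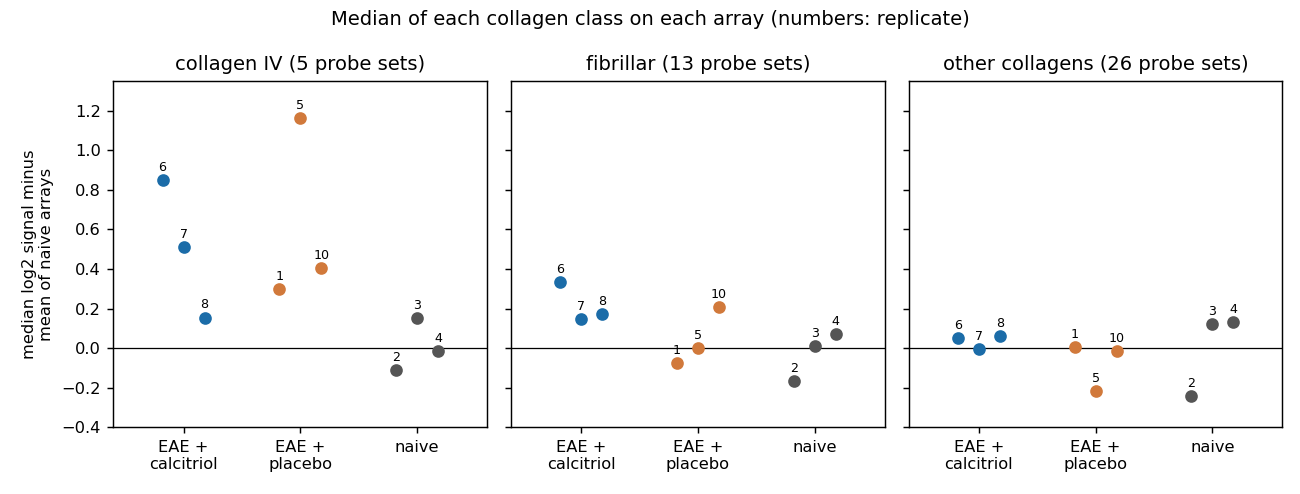
Median log2 signal of collagen IV, fibrillar and other collagen probe sets on each array, minus the mean of the naive arrays, in EAE with calcitriol, EAE with placebo and naive cord; numbers are replicates. The collagen IV median is 0.16 to 1.16 log2 on EAE arrays and -0.11 to 0.15 log2 on naive arrays. It includes Col4a3, which the floor holds at the same value throughout naive cord, so this separation is no support for a rise of the class. The fibrillar median is 0.15 to 0.33 log2 with calcitriol, above naive arrays, and overlaps them with placebo.

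Of the 26 probe sets of other collagen classes, 0 passed the limma test in any comparison, and 3 of all 44 collagen probe sets had an unadjusted p under 0.05 in each comparison with naive cord, where 9.34% of all probe sets did with placebo and 11.9% with calcitriol. Their median differences were -0.09 log2 for placebo and 0.01 log2 for calcitriol against naive. Among collagen VI genes, whose beaded filaments lie next to basement membranes, Col6a1 had the smallest p, at probe set 162459_f_at. It read 78.0, 69.8 and 114 units on calcitriol arrays, 45.3, 36.3 and 54.1 on placebo arrays, and 55.7, 93.6 and 83.2 on naive arrays. Placebo arrays were below both other groups without overlap, at -0.76 ± 0.31 log2 for placebo against naive (limma adjusted p = 0.473, and 0.0434 with array weights). The brighter Col6a1 probe set 95493_at, at 439 to 626 units over all arrays, did not share this, at -0.18 log2 for placebo against naive.

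The multiplexins Col18a1, whose C-terminal fragment is endostatin, and Col15a1 belong to the basement membrane zone of vessels. The 5 Col18a1 probe sets differed in sign, from -0.73 to 1.14 log2 for placebo and from -0.35 to 0.87 log2 for calcitriol against naive. The high end was probe set 101882_s_at, which had an exact 0 on naive replicate 4 and 264 and 362 units on naive replicates 2 and 3. The highest in mean log2 was 99638_at, at 7.72, against 7.61 for 101882_s_at with its exact 0 raised to the floor. On placebo arrays 99638_at was at 154 to 220 units, below naive arrays (225 to 237) without overlap. It stood at -0.26 ± 0.18 log2 for placebo (limma adjusted p = 0.726) and at -0.11 ± 0.18 log2 for calcitriol against naive, the latter with overlap. Col15a1 read 51.9, 46.2 and 51.0 units on calcitriol arrays, 65.0, 26.3 and 93.5 on placebo arrays, and 69.6, 59.4 and 60.4 on naive arrays. Calcitriol arrays were below naive arrays without overlap (-0.34 ± 0.42 log2, limma adjusted p = 0.818), and placebo arrays spanned both.

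Among fibril-associated collagens, which sit on the surface of fibrils, 9 probe sets of 7 genes ranged from -0.28 to 0.16 log2 for placebo and from -0.23 to 0.29 log2 for calcitriol against naive. Col9a1, a chain of the type IX collagen of cartilage fibrils, read 409, 414 and 528 units on calcitriol arrays, 365, 393 and 407 on placebo arrays, and 538, 428 and 449 on naive arrays. Placebo arrays were below both other groups, at -0.28 ± 0.15 log2 against naive (limma adjusted p = 0.657). Col19a1 read 53.8, 54.4 and 52.6 units on calcitriol arrays, 43.6, 38.7 and 32.5 on placebo arrays, and 53.3, 33.7 and 53.5 on naive arrays, and calcitriol arrays were above placebo arrays without overlap.

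Col17a1, the transmembrane collagen of hemidesmosomes, read 107, 109 and 108 units on calcitriol arrays, 95.9, 114 and 140 on placebo arrays, and 80.2, 125 and 24.3 on naive arrays. The low value of naive replicate 4 set its differences of 0.79 ± 0.50 log2 for calcitriol and 0.88 ± 0.50 log2 for placebo, which were 0.10 and 0.20 log2 without it. Col8a1, a short-chain network collagen of endothelial matrix, read 82.7, 50.8 and 83 units on calcitriol arrays, 69.0, 87.7 and 80.7 on placebo arrays, and 74.3, 111 and 120 on naive arrays. It overlapped between groups, at -0.50 ± 0.29 log2 for calcitriol and -0.34 ± 0.29 log2 for placebo. The remaining genes, Col7a1, Col10a1, Col13a1 and Col26a1, ranged from -0.23 to 0.65 log2 for placebo and from -0.54 to 0.57 log2 for calcitriol against naive, with overlap throughout. Of the 9 genes with more than 1 probe set, all probe sets had the same sign in 5 for placebo and in 3 for calcitriol against naive.

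**Figure D4:**
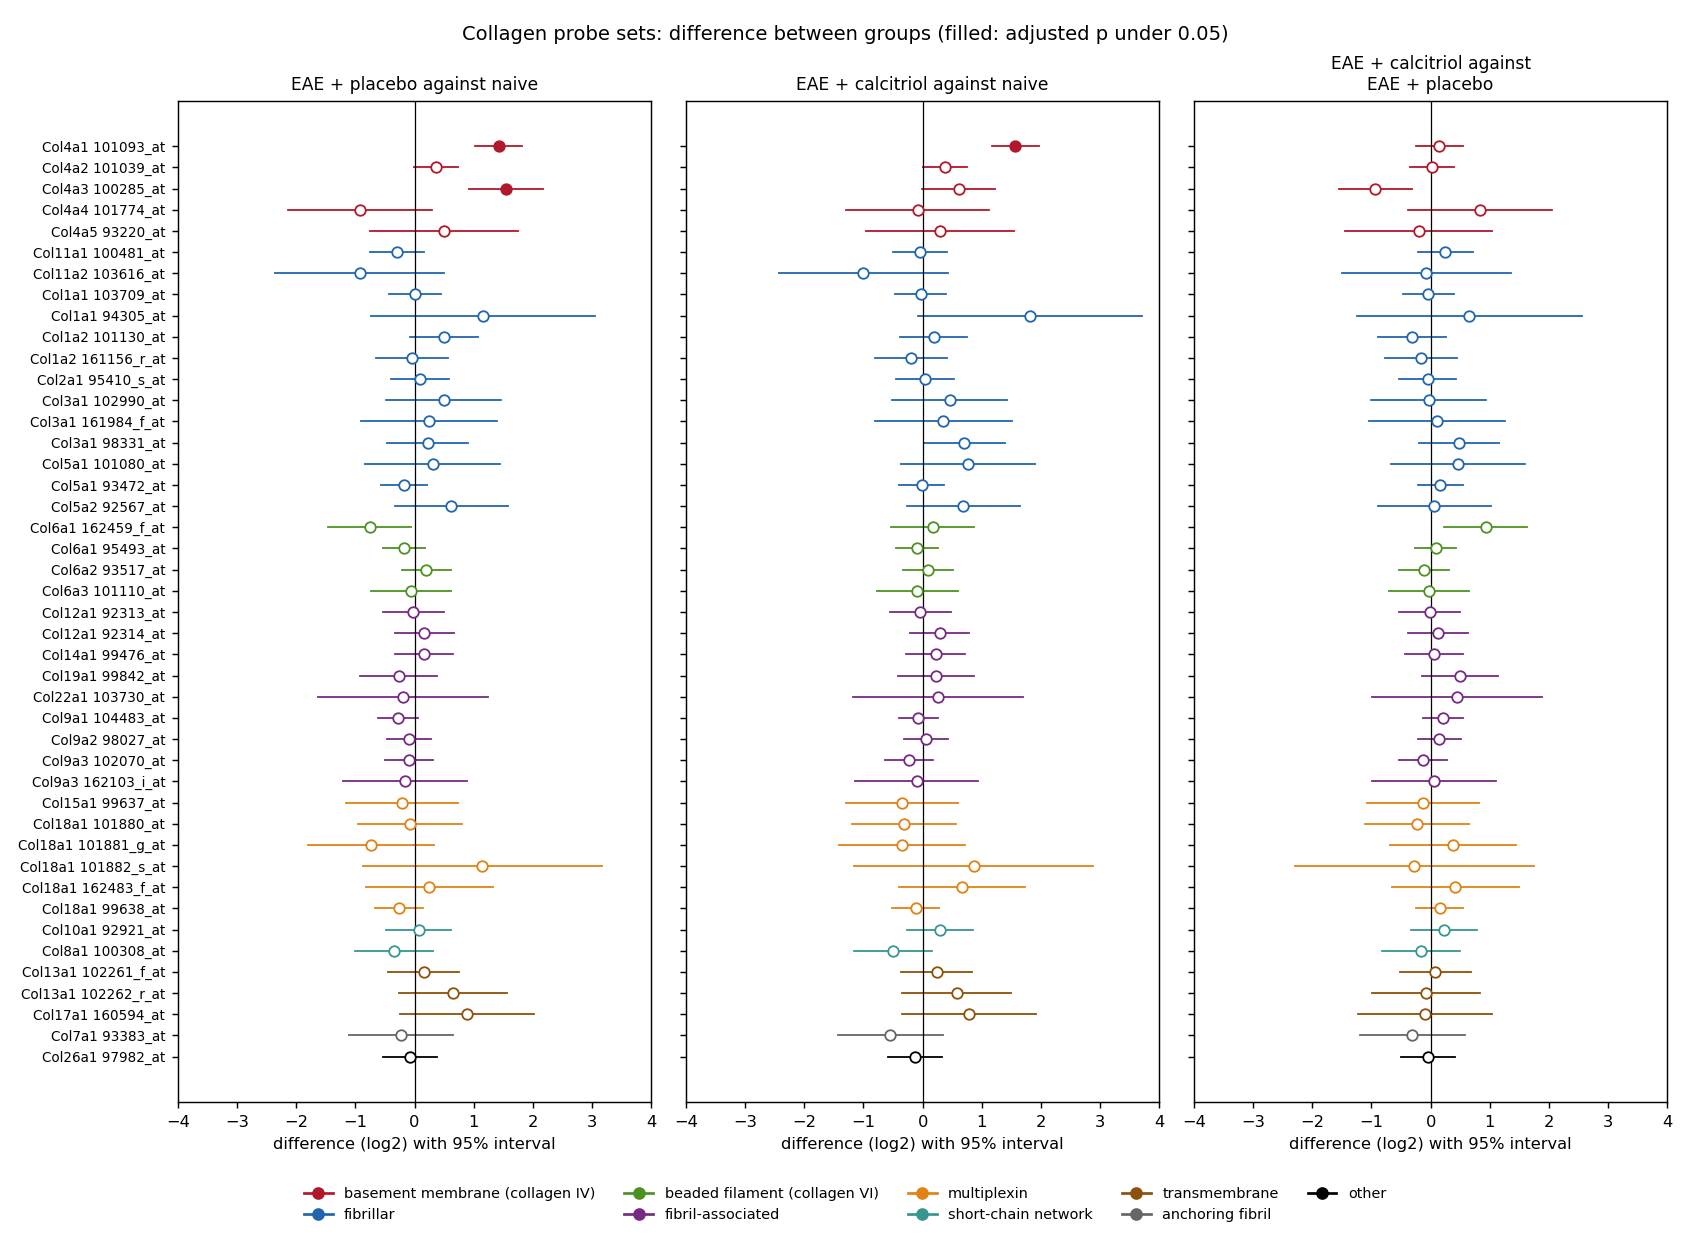
Difference (log2) with its 95% interval for each of the 44 collagen probe sets in placebo-treated EAE against naive, calcitriol-treated EAE against naive and calcitriol against placebo; colours are collagen classes and filled points have an adjusted p under 0.05. The filled points are Col4a1 in both comparisons with naive cord and Col4a3 with placebo, and the third comparison has none.

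Calcitriol was compared with placebo in EAE to see what the hormone changed within 6 h. No collagen probe set passed in limma at an adjusted p under 0.05, and 2 of 44 had an unadjusted p under 0.05, where 314 of all 12178 probe sets (2.58%) did. These were Col4a3, 1.91-fold lower with calcitriol (-0.94 ± 0.28 log2, limma adjusted p = 1), and Col6a1 162459_f_at, 1.91-fold higher (0.93 ± 0.31 log2, limma adjusted p = 1). Col4a1 differed by 0.15 ± 0.18 log2, with a 95% interval of -0.25 to 0.55, and Col4a2 by 0.02 ± 0.17 log2, with an interval of -0.35 to 0.39. Groups did not overlap for 6 collagen probe sets that were higher with calcitriol and 1, Col4a3, that was lower, where 4.86% of all probe sets were higher and 5.15% lower without overlap, together 10%. The 6 were Col4a4, Col5a1 (101080_at), Col6a1 (162459_f_at), Col9a1, Col10a1 and Col19a1. The median difference over all 44 was 0.06 log2, and the collagen IV median minus the fibrillar median was -0.05 log2.

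Other genes of collagen biology were followed in 6 lists with 82 tested genes. Of these 5 (6.1%) rose with calcitriol and 2 (2.44%) with placebo against naive, where 1.68% and 0.887% of all probe sets rose, and 0 fell in either. Of 18 other basement membrane components, 0 passed in any comparison, and their median differences were -0.08 log2 for placebo and -0.04 log2 for calcitriol against naive. Sparc, a collagen-binding matricellular protein, had the smallest p with calcitriol, at 450 to 600 units on calcitriol arrays, 665 to 959 on placebo arrays and 687 to 1240 on naive arrays. Calcitriol arrays were below both other groups without overlap, at -0.72 ± 0.24 log2 against naive (limma adjusted p = 0.22), and placebo stood at -0.11 ± 0.24 log2 against naive (limma adjusted p = 0.935). Lamc1, a laminin chain, stood at 58.0 to 72.8 units on calcitriol arrays, 45.9 to 86.4 on placebo arrays and 101 to 118 on naive arrays, below naive cord in both EAE groups (-0.79 ± 0.28 log2 for calcitriol, limma adjusted p = 0.267, and -0.76 ± 0.28 log2 for placebo, limma adjusted p = 0.393). Lamb1, another laminin chain, stood at 0.82 ± 0.37 log2 for calcitriol (limma adjusted p = 0.419) and 0.80 ± 0.37 log2 for placebo (limma adjusted p = 0.562), with overlap in both.

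Of 17 genes of collagen synthesis and crosslinking, 0 passed for placebo and 1 rose for calcitriol against naive. Their median differences were 0.31 log2 for calcitriol and -0.04 log2 for placebo, with 12 and 8 of 17 above 0. The gene that rose was Ppib (cyclophilin B), a prolyl isomerase of procollagen folding, at 254 to 285 units on calcitriol arrays, 261 to 274 on placebo arrays and 163 to 174 on naive arrays. It rose 1.62-fold with calcitriol (0.70 ± 0.13 log2, limma adjusted p = 0.026) and stood at 0.67 ± 0.13 log2 with placebo (limma adjusted p = 0.0502). P4hb, a subunit of prolyl hydroxylase, stood at 0.78 ± 0.24 log2 for calcitriol and 0.82 ± 0.24 log2 for placebo (limma adjusted p = 0.188 and 0.24). The collagen chaperone Serpinh1 stood at 1.93 ± 0.57 and 1.74 ± 0.57 log2 (limma adjusted p = 0.161 and 0.318), with an exact 0 on a naive array. Pcolce, which enhances procollagen C-terminal processing, was below naive arrays without overlap in both EAE groups, at -0.66 ± 0.21 log2 for calcitriol (limma adjusted p = 0.198) and -0.38 ± 0.21 log2 for placebo (limma adjusted p = 0.667). Mia3, needed to export procollagen from the endoplasmic reticulum, stood at -0.49 ± 0.35 log2 for calcitriol with overlap and at -0.78 ± 0.35 log2 for placebo without it (limma adjusted p = 0.65 and 0.548).

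Of 15 partners of collagen fibrils, 1 rose in each comparison with naive cord, Fn1 (fibronectin), at 1090 to 1920 units on calcitriol arrays, 775 to 1250 on placebo arrays and 82.6 to 115 on naive arrays. Fn1, which binds collagens and cells, was 14.2-fold higher with calcitriol (limma adjusted p = 0.000177) and 9.93-fold higher with placebo (limma adjusted p = 0.000505). The fibril-binding proteoglycan Dcn (decorin) stood at 1.23 ± 0.38 log2 for calcitriol (limma adjusted p = 0.183) and 1.10 ± 0.38 log2 for placebo (limma adjusted p = 0.347). Of 15 TGF-beta and fibrosis regulators, 2 rose for calcitriol, Tgfbi (2.73 ± 0.33 log2, limma adjusted p = 0.004) and Ccn2 (at least 5.60-fold, with all naive arrays at the floor, limma adjusted p = 0.0434), and 1 for placebo, Tgfbi (2.17 ± 0.33 log2, limma adjusted p = 0.0206). Tgfbi is a collagen-binding matrix protein, and Ccn2 (connective tissue growth factor) a matricellular protein. Like Col4a3, Ccn2 entered the test only through EAE arrays. The floor set its SD on naive arrays to 0, which narrows the spread behind its p-value. Of 9 tested collagenases and inhibitors, 1 rose for calcitriol, the metalloproteinase inhibitor Timp1 (0.93 ± 0.15 log2, limma adjusted p = 0.0127), and 0 for placebo, where Timp1 stood at 0.67 ± 0.15 log2 (limma adjusted p = 0.0817). Of 9 collagen receptors, 0 passed, and their median differences were -0.30 log2 for calcitriol and -0.08 log2 for placebo against naive, with 3 and 4 of 9 above 0. Itgb1, the beta subunit of the collagen-binding integrins, was among those above 0. It stood at 0.29 ± 0.19 log2 for calcitriol with overlap (limma adjusted p = 0.6) and at 0.69 ± 0.19 log2 for placebo without it (limma adjusted p = 0.189), against naive. Its calcitriol arrays (242 to 355 units) were below its placebo arrays (395 to 418) without overlap, at -0.40 log2.

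**Figure D5:**
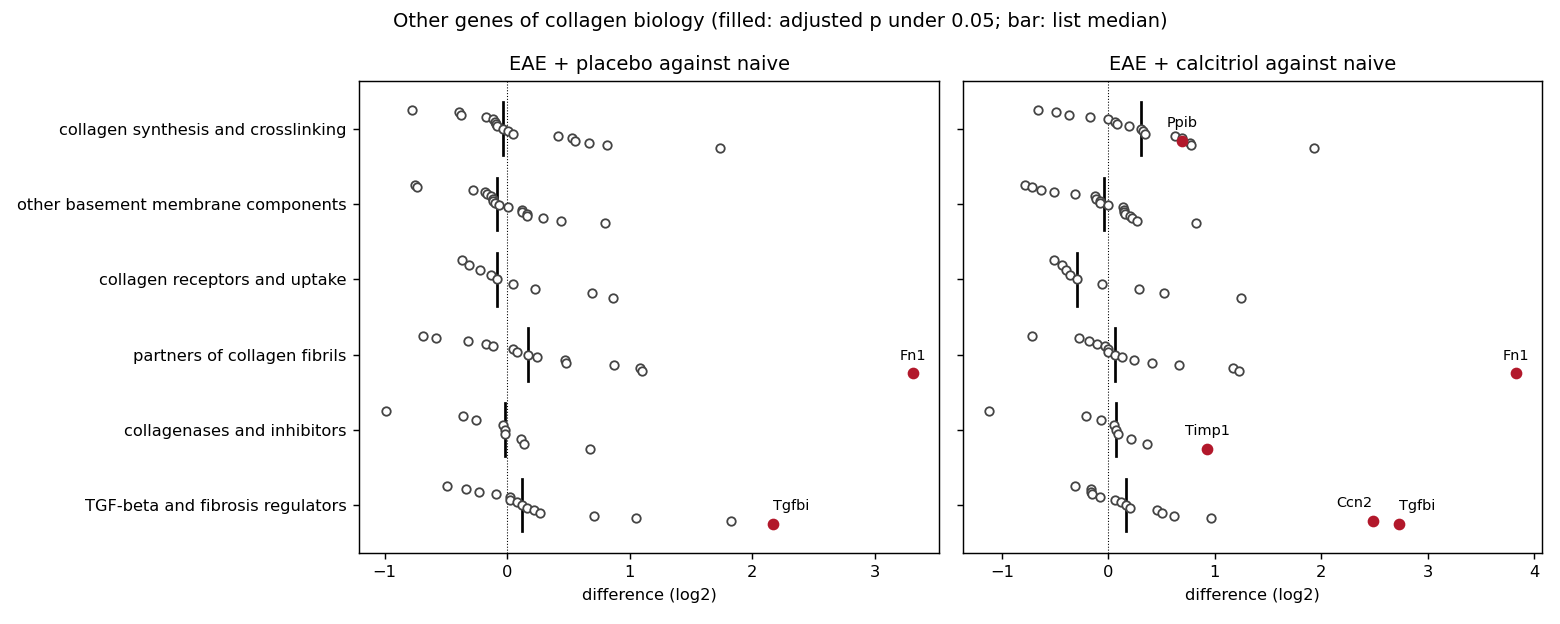
Difference (log2) of each tested gene of 6 lists of collagen biology, in placebo-treated and calcitriol-treated EAE against naive cord; points are genes with 1 probe set each, filled points have an adjusted p under 0.05 and bars are list medians. Other basement membrane components centre on -0.08 and -0.04 log2 with none filled, and the filled points are Ppib, Fn1, Timp1, Tgfbi and Ccn2.

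Markers of cells that make collagen IV were compared beside Col4a1. Of 13 tested endothelial markers, 0 passed in any comparison. Over all probe sets 0.936% were called with placebo and 2% with calcitriol against naive, and 0% between the EAE groups. At such shares, 0 passed in a list of this length is no result about these cells, here and in the lists below. The summed signal of all 14 measured was 1702 to 1879 units on calcitriol arrays, 1824 to 2000 on placebo arrays and 1498 to 1751 on naive arrays. Placebo arrays were above naive arrays in this sum and calcitriol arrays overlapped them. Of 11 pericyte and vascular smooth muscle markers, 0 passed, with sums of 2174 to 2915 on calcitriol arrays, 2545 to 2638 on placebo arrays and 1463 to 2448 on naive arrays. Bright probe sets weigh most in such a sum, and the median differences did not share its direction. They were -0.09 log2 for placebo and -0.15 log2 for calcitriol against naive, with 5 and 4 of 11 above 0. Fibroblast and meningeal markers (14 measured and summed, 13 tested, 0 passed) summed to 2757 to 3284, 3116 to 3680 and 3078 to 3459 units on calcitriol, placebo and naive arrays, and those of cartilage and bone (8 tested, 0 passed) to 1135 to 1319, 1016 to 1172 and 1302 to 1479. Of 5 markers of Schwann cells and nerve roots 1, S100a4, which leukocytes also express, rose in both comparisons with naive cord. Over all probe sets 1.68% rose with calcitriol and 0.887% with placebo. The sums of these 5 markers were 1615 to 1899, 1572 to 1897 and 1528 to 2517 units on calcitriol, placebo and naive arrays. Of 14 skeletal muscle markers 0 passed.

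Of 15 markers of monocytes, macrophages and microglia, 7 rose for calcitriol and 4 for placebo against naive, where 1.68% and 0.887% of all probe sets rose. Their sum was 5602 to 9251 units on calcitriol arrays, 5145 to 6473 on placebo arrays and 2674 to 2785 on naive arrays. Of 14 tested neuron markers 1, Cplx1, fell in each comparison with naive cord and 13 did not pass. Over all probe sets 0.312% fell with calcitriol and 0.0493% with placebo. The sums of all 15 measured were 7001 to 7779, 7743 to 10390 and 11450 to 21090 units on calcitriol, placebo and naive arrays, the highest on naive replicate 2. Of 7 oligodendrocyte and myelin markers 1, Mog, fell with calcitriol against naive and 0 passed with placebo, with sums of 4209 to 6692, 5869 to 6324 and 5712 to 7364 units on calcitriol, placebo and naive arrays. The part of these cell types in the difference of Col4a1 was not tested. Astrocyte markers (8, 0 passed) summed to 5722 to 8746, 8154 to 9344 and 6413 to 11270 units on calcitriol, placebo and naive arrays. None of the marker lists had a member at the floor on all 9 arrays.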

How the data were processed

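Deposited intensity values, linear and 1 per probe set and array, covered 12488 probe sets on 9 arrays. The authors' scaling and summary of probes are not stated in the labels or file headers. The array annotation gave 10855 probe sets 1 gene symbol, 396 several and 1237 none. Arrays were brought to 1 trimmed mean, 192.6 (trimming 2% at each end and omitting 66 controls). Values under 10% of this, 19.3, were set to 19.3 before log2. The 12178 probe sets above the floor on at least 3 arrays were tested with linear models and empirical Bayes moderation with an intensity trend (limma 3.58.1, R 4.3.3), with all 9 arrays in 1 model and 6 residual degrees of freedom. P-values were adjusted by Benjamini-Hochberg over all probe sets tested in each comparison, with a threshold of 0.05, and errors of differences are SE. Of the 396 collagen values 8 were below 0 and 3 exactly 0. The number of arrays, 3 per group, limits precision: the median 95% interval reached 0.64 log2 to either side, and in 5 simulated series of placebo against naive with 200 changed of 12178 probe sets, 36.2% of 2-fold and 77.6% of 4-fold changes were called. Changes were simulated only in probe sets with a mean above 2 times the floor, with normal noise, the same spread in all groups and no floor. These shares therefore do not cover dimmer probe sets such as Col4a3. A fold against a group with all arrays at the floor is a lower bound.

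The collagen genes, the other gene lists and the comparisons were chosen with earlier results of these data known. Values on every array are given for collagen IV and fibrillar probe sets, any past the threshold, and the 5 others with the smallest unadjusted p; other members, and list genes named beside one that passed (P4hb, Serpinh1, Pcolce, Mia3 and Dcn), were chosen after their values were seen. In lists with no gene past the threshold, up to 3 of the smallest unadjusted p were named. Lists used 1 probe set per gene, taking tested ones first, then those with no letter before "at" in their name, then the brightest. Probe sets with such a letter can share probes with other transcripts. Promoter windows are RefSeq's (GRCm38.p6); probe positions were not used. Alternatives were deposited scale, quantile normalization, other floors and filters, array weights, exact zeros as missing, the wording of the source name as a block, fits of 6 arrays, leaving out each array, and other definitions of the collagen classes. Plots were made in Python 3.11.15 (pandas 2.3.3, matplotlib 3.10.9).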

Additional observations from a re-analysis of the deposited data

How the results depend on the processing

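No paired analysis was possible because the groups share no replicate number. The count of collagen probe sets called for placebo against naive was 2; it was 1 (Col4a1) with a floor of 20%, the filter on the mean (where Col4a3 was not tested), the source name wording as a block and a fit of only the 6 arrays, 4 with array weights (Col4a1, Col4a3, Col4a4 and Col6a1), and 0 to 1 in the fits that leave out 1 array. It was 0 without placebo replicate 5. For calcitriol against naive it was 1 in every setting, and for calcitriol against placebo 0 in every setting. Over all probe sets the count for placebo against naive was 114, and 634 with array weights, 64 with only the 6 arrays and 20 to 177 leaving out 1 array (34 without placebo replicate 1, 20 without placebo replicate 5, 75 without calcitriol replicate 6, 46 and 49 without naive replicates 3 and 4, 177 without naive replicate 2). For calcitriol against naive it was 243, and 1014 with array weights, 123 with only the 6 arrays and 75 to 392 leaving out 1 array (130 and 75 without calcitriol replicates 6 and 8, 392 and 115 without naive replicates 2 and 3). For calcitriol against placebo it was 0 to 1 leaving out 1 array, 1 without calcitriol replicate 6 or 7, and 0 otherwise. The collagen IV minus fibrillar median difference for placebo against naive was 0.27 log2, 0.69 with the source name wording as a block and 0.085 to 0.84 leaving out 1 array (0.085 without placebo replicate 5, 0.84 without naive replicate 3). For calcitriol against naive it was 0.20 log2, -0.12 with a floor of 20%, 0.45 with the source name wording as a block, -0.021 with only types I, III and V, and 0.20 to 0.43 leaving out 1 array (0.43 without calcitriol replicate 8). For calcitriol against placebo it was -0.05 log2, and -0.19 to 0.16 leaving out 1 array. Over all settings Col4a1 ranged from 1.29 to 1.58 log2 for placebo and from 1.49 to 1.69 log2 for calcitriol against naive. Of 1301 alternative values of the 23 probe sets given on every array, 15 changed side of the threshold, all for placebo against naive, and none that passed changed sign; 79 that passed in neither setting did. The causes were not tested.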
